A study of Mus musculus with 8 samples.

Results

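The comparison is between the last 2 libraries, by title, of a chromatin immunoprecipitation time course for the transcription factor PU.1 in AML246, a cell line from mouse acute myeloid leukaemia. Both were taken after withdrawal of doxycycline (Dox), the drug that restores PU.1 in this line. The members are the peak summits that the authors called in each: 21377 in the library titled knockdown Day 12- 8 and 148415 in the library titled knockdown Day 12- 12. They are 169792 of the 365360 summits in the 7 libraries that had a file, out of 8 labelled samples. For both libraries the cells grew in medium with IL-3 and fetal calf serum, 0.1 ug/mL Dox was added at day 0 and removed at day 12, and total viable cells were sorted. The titles and the treatment labels disagree on time: the treatment given for Day 12- 8 is 4 days without Dox, and that for Day 12- 12 is 8 days without it. Either reading puts the pair in the same order, 4 days apart, and the titles are used here. The sample whose treatment label gives 12 days without Dox was not analysed here.

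PU.1, encoded by Spi1, is an ETS-family transcription factor that binds DNA around a GGAA core. It is needed for the formation of granulocytes, macrophages and B cells, and reduced PU.1 activity is a known driver of myeloid leukaemia in mice. In myeloid cells most of its sites lie in enhancers away from promoters, where it works beside other lineage factors and opens chromatin.

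Each time point had 1 library of 1 cell line, so there is no replicate error and no p-value. The construct that controls PU.1 in the line is not given in the sources used here. No RNA was measured, so the identity of the cells was not checked. Each summit carries a score, read as the −log10 of its peak's q-value; it ranks sites within a list and does not measure a change between lists. Sequencing depth is unknown, so a longer list is not more binding and a missing call is not an unbound site.

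Sequences at promoters show the kinds of site that were called in both libraries or in one of them. Each stretch below holds 121 bases centred on a summit, taken from RefSeq promoter sequence (GRCm38.p6, the mm10 build) and written 5′ to 3′ on the strand of the gene. Capitals mark the GGAA core of an ETS site, which reads TTCC where it lies on the opposite strand. The first 4 are the highest-ranked of the eligible sites that were called in both libraries. They lie at Prr14l (chr5:32854199-32854319, minus strand), at Exoc7, which encodes an exocyst subunit (chr11:116306691-116306811, minus strand), at Zfpl1, which encodes a Golgi zinc-finger protein (chr19:6084994-6085114, minus strand), and at Syf2, which encodes a splicing factor (chr4:134930752-134930872, plus strand).
Prr14l: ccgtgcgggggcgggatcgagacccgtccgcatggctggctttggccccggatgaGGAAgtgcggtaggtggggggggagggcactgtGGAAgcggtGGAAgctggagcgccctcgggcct
Exoc7: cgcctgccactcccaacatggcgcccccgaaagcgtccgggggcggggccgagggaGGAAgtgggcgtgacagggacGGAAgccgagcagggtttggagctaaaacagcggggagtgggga
Zfpl1: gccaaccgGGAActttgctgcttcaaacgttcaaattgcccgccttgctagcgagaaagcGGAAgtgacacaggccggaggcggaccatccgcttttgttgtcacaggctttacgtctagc
Syf2: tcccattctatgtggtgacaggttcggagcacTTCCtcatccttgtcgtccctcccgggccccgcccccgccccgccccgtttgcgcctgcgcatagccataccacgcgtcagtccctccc
The next 4 are the highest-scoring eligible sites of the Day 12- 8 list with no Day 12- 12 summit within 500 bp. They lie at E130308A19Rik (chr4:59626019-59626139, plus strand), at Rftn1, which encodes the lipid-raft protein raftlin (chr17:50190479-50190599, minus strand), at Mnt, which encodes a MAX-binding antagonist of MYC (chr11:74830783-74830903, plus strand), and at Pwwp3a (chr10:80226505-80226625, plus strand).
E130308A19Rik: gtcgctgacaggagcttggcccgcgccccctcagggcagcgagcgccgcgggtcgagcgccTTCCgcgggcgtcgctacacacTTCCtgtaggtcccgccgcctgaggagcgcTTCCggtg
Rftn1: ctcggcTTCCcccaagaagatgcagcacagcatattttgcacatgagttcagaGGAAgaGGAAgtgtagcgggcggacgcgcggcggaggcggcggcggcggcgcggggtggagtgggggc
Mnt: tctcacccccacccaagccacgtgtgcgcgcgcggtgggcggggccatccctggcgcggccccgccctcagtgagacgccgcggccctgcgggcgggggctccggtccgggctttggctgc
Pwwp3a: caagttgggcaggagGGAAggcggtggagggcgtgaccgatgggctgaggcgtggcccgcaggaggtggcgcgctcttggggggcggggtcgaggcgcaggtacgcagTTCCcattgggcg
The last 4 are the highest-scoring eligible sites of the Day 12- 12 list with no Day 12- 8 summit within 500 bp. They lie at the fatty acid elongase gene Elovl6 (chr3:129532147-129532267, plus strand), the cytochrome P450 gene Cyp4f16 (chr17:32536441-32536561, plus strand), Olfm4, which encodes a neutrophil granule protein (chr14:80000165-80000285, plus strand), and Traf3ip3, which encodes a TRAF3-binding protein (chr1:193201537-193201657, minus strand).
Elovl6: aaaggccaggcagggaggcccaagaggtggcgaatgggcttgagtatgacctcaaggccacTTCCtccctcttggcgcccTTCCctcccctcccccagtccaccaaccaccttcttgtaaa
Cyp4f16: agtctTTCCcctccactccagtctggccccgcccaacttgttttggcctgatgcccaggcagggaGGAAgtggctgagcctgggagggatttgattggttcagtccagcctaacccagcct
Olfm4: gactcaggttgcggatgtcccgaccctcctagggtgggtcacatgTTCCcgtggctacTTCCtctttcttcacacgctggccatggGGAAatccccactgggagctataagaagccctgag
Traf3ip3: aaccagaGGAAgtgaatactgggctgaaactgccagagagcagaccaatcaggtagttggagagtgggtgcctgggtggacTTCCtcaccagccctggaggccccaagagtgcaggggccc

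The 8-base sequence GAGGAAGT, the form of the ETS site that PU.1 prefers, stood in 3 of the 4 stretches called in both libraries and in 4 of the 4 called in Day 12- 12. It stood in 1 of the 4 called in Day 12- 8, at Rftn1, while the Mnt stretch held no GGAA core on either strand. The Day 12- 8 stretches had 66.9% to 79.3% G and C, above the 57.9% to 60.3% of the Day 12- 12 stretches. These 12 sites were chosen by score among the eligible summits, so the counts describe the examples. The scores at Prr14l were 637 in Day 12- 8 and 419 in Day 12- 12, the summits lying 3 bp apart, and the centre of the nearest core lay 3.5 bp from the Day 12- 8 summit.

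Over all promoters the same contrast was present. RefSeq windows from 250 bases before to 50 bases after a start site were available for 17469 of 21887 protein-coding genes, in 21238 windows. GAGGAAGT, on either strand, was present in 3.13% of all windows (95% interval 2.90% to 3.37%). It was present in 8.05% (6.79% to 9.46%) of the 1677 windows with a summit of both libraries and in 6.44% (5.46% to 7.54%) of the 2236 windows with a Day 12- 12 summit alone. Among the 1829 windows with a Day 12- 8 summit alone it was present in 0.711% (0.379% to 1.21%), which is 13 windows and below the share of all windows. Intervals are exact binomial (Clopper-Pearson) 95% intervals; here and throughout they cover counting error only.

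CCGGAAGT, the form that many other ETS proteins prefer, was present in 5.15% of all windows, 19.4% of windows with both summits, 7.22% with a Day 12- 8 summit alone and 10.6% with a Day 12- 12 summit alone. It shares the letters GGAAGT with GAGGAAGT, so the 2 sequences cannot overlap at the same core. The windows also differed in composition: the median share of G and C was 68.7% with a Day 12- 8 summit alone, 57.3% with a Day 12- 12 summit alone, 64.7% with both and 56.3% in all windows. Among windows with 60% to 70% G and C, GAGGAAGT was present in 0.763% (0.307% to 1.56%) with a Day 12- 8 summit alone. With a Day 12- 12 summit alone it was present in 3.80% (2.45% to 5.61%). The share was 8.68% (7.08% to 10.5%) with both and 2.72% (2.31% to 3.18%) of all. In this range the interval for a Day 12- 12 summit alone overlapped that of all windows when full lists were used. With the equal-length list the share was 5.99% (3.53% to 9.41%) of 284 windows with a Day 12- 12 summit alone. That interval lay above the one of all windows. For a Day 12- 8 summit alone it was then 0.730% (0.334% to 1.38%). The other shares here are for full lists. GGGCGG, the GC box that SP1 binds, was present in 82.2% of windows with a Day 12- 8 summit alone, 49.9% with a Day 12- 12 summit alone, 79.4% with both and 46.2% of all. CCAAT, the box that NF-Y binds, was present in 29.6%, 42.3%, 34.6% and 38.2% of the same 4 sets. Among windows with 60% to 70% G and C, GGGCGG was present in 78.1% (75.3% to 80.7%) with a Day 12- 8 summit alone. It was present in 77.04% (75.9% to 78.1%) of all in that range. CCGGAAGT was present there in 8.17% (6.48% to 10.1%) with a Day 12- 8 summit alone and 8.65% (7.93% to 9.42%) of all. With both summits CCGGAAGT stood at 20.7%. Neither sequence was in clear excess with a Day 12- 8 summit alone in that range. A match describes the sequence and is not evidence that the protein was bound.

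**Figure D1:**
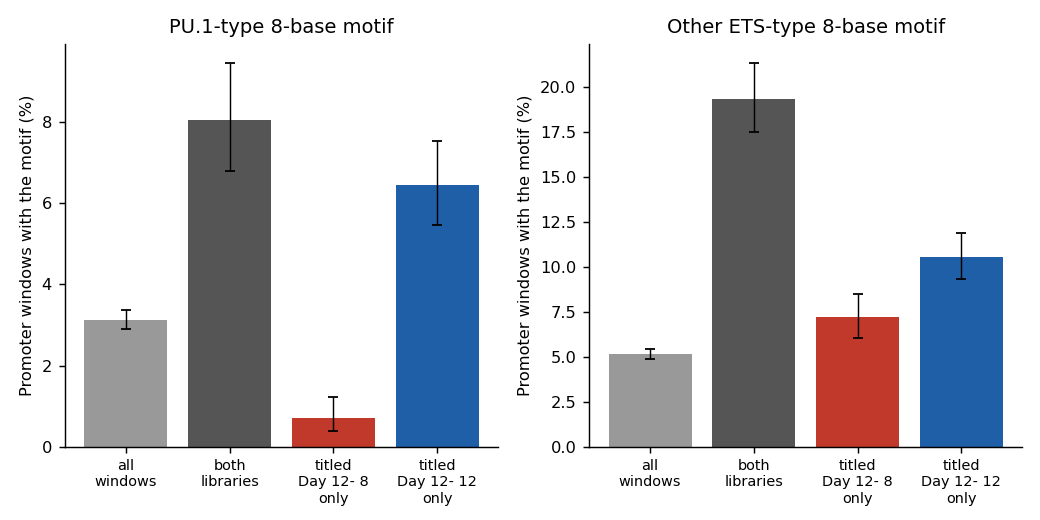
Share of 300-base promoter windows that hold GAGGAAGT (left) or CCGGAAGT (right) on either strand, in all 21238 windows and in windows with a summit of both libraries, of Day 12- 8 alone or of Day 12- 12 alone (full lists). Bars are percent of windows and lines are exact 95% intervals for counting error; GAGGAAGT stands at 0.711% in the windows with a Day 12- 8 summit alone and at 8.05% in those with both.

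The Day 12- 12 list held 6.94 times as many sites as the Day 12- 8 list, and the ratio was smaller at each score minimum tried. With a score of at least 10 there were 6428 Day 12- 8 and 28751 Day 12- 12 sites, a ratio of 4.47. With a score of at least 20 there were 2426 and 7615 sites, a ratio of 3.14, and with at least 100 there were 291 and 1224, a ratio of 4.21. The highest scores were alike, 798 and 796, and the medians were 7.16 and 6.34. Sites lay closer together in the longer list, with a median of 1721 bp to the next site against 15268.5 bp in Day 12- 8. Of the Day 12- 12 sites, 75.2% had a score that more than 100 sites of the list held exactly, compared with 7.16% of the Day 12- 8 sites. To compare lists of 1 length, the 21377 highest-scoring Day 12- 12 sites were also used, called the equal-length list. This list ended inside a block of 2001 sites with a score of 11.6, of which 1225 were kept in file order.

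Sites called in both libraries were a minority of either list. A summit of the other library lay within 100 bp of 5625 Day 12- 8 sites, 26.3% (25.7% to 26.9%), and of 5628 Day 12- 12 sites, 3.79% (3.70% to 3.89%). Stretches of 100 bp to each side of the Day 12- 12 summits covered 1.12% of the chromosomes' span. Between lists of 1 length 2906 sites were shared, 13.6% (13.1% to 14.1%). Widening the distance to 2 kb took the shared part of the Day 12- 8 list to 63.2%, with the windows covering 15.1% of the span, so 7877 Day 12- 8 sites had no Day 12- 12 summit within 2 kb.

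Sharing was concentrated among the highest-scoring sites. Each list was cut by score into 10 groups of equal size, with group 1 the highest. Of group 1 of the Day 12- 8 list, 81.3% (79.6% to 83.0%) had a Day 12- 12 summit within 100 bp, and of group 2 41.2%. In group 10 the share was 8.38%. In the Day 12- 12 list 17.7% of group 1 was shared and between 1.64% and 4.28% of each other group. At the 5625 shared sites the summits lay a median of 35 bp apart, the median scores were 12.0 in Day 12- 8 and 12.2 in Day 12- 12, and the scores had a Spearman correlation of 0.56 across sites. Neither library scored higher throughout: 2920 shared sites had the higher score in Day 12- 8 and 2705 in Day 12- 12. Depth and control act on all sites of a list together, so the count does not measure binding. The correlation compares the order of scores across sites and does not measure binding either.

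**Figure D2:**
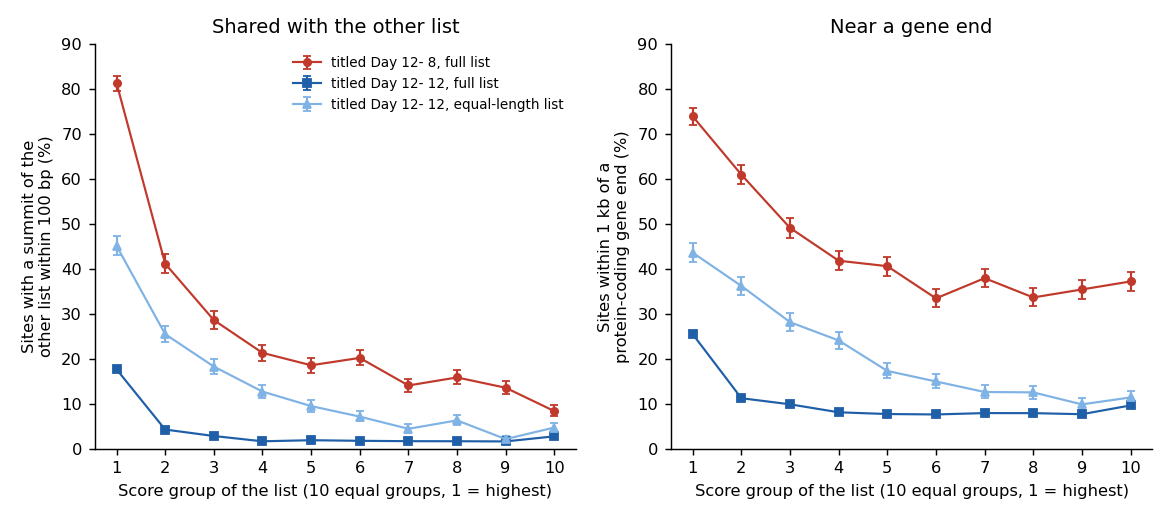
Share of sites with a summit of the other list within 100 bp (left; the equal-length list is set against the whole Day 12- 8 list) and within 1 kb of a protein-coding gene end (right), by score group of each list from the highest scores (1) to the lowest (10). Points are percent and bars exact 95% intervals; the Day 12- 8 list runs from 81.3% to 8.38% shared, and in every group has a larger share near gene ends than either Day 12- 12 list.

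The libraries differed in where their sites lay. Protein-coding gene ends, either end counted, had 44.4% (43.7% to 45.1%) of Day 12- 8 sites within 1 kb, 10.3% (10.2% to 10.5%) of Day 12- 12 sites and 21.1% (20.5% to 21.6%) of the equal-length list. Gene ends stand in for promoters here because the gene table has no strand. Day 12- 12 sites lay more often inside a gene and over 1 kb from its ends, 56.1% against 34.8%, and outside genes at 10 to 100 kb, 17.6% against 9.74%. Beyond 100 kb from any gene the shares were 6.64% and 5.59%.

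The gene-end share did not come from the shared sites alone. It was 50.4% at shared sites, 42.3% (41.5% to 43.0%) at sites called in Day 12- 8 alone and 8.75% (8.60% to 8.90%) at sites called in Day 12- 12 alone. With lists of 1 length these shares were 62.7%, 41.5% and 14.5%. In the Day 12- 8 list the share was 73.9% in score group 1 and 37.2% in group 10, while in the full Day 12- 12 list it was 25.5% and 9.64%. In the equal-length list it was 43.6% in group 1 and 11.4% in group 10.

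Where strand was known, the summits also sat differently around start sites. On the chromosomes in the promoter table, 39.9% of Day 12- 8 sites, 6.13% of Day 12- 12 sites and 17.0% of the equal-length list lay within 1 kb of an annotated start. The Day 12- 8 summits in this range lay a median of 81 bp downstream of the start, and 69.7% of them were downstream. For Day 12- 12 the median was 30 bp and 57.1% were downstream, and for the equal-length list 1 bp and 50.1%. The tallest 100 bp bin of the equal-length list was the one just before the start, with 4.44% of its sites. That of Day 12- 8 was the one just after it, with 9.53%.

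**Figure D3:**
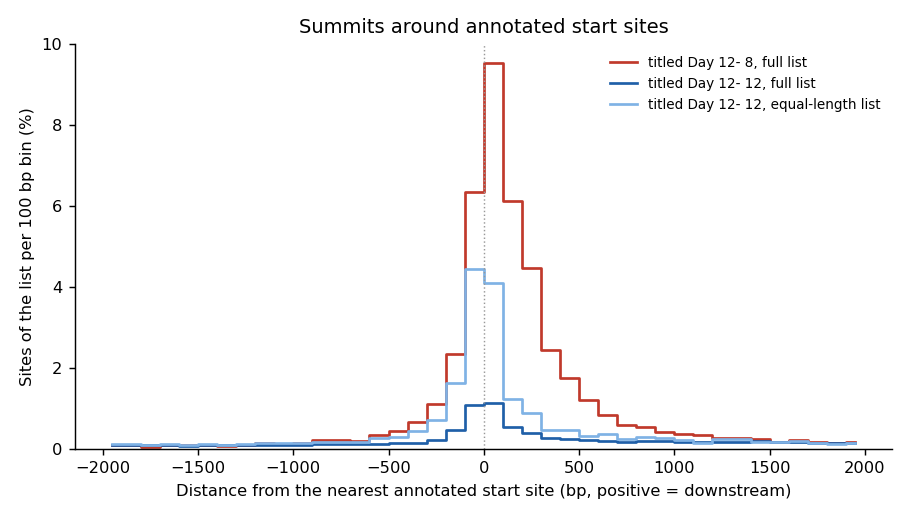
Percent of each list's sites in bins of 100 bp by distance from the nearest annotated start site, with downstream positive and the start at the dotted line. The Day 12- 8 curve peaks at 9.53% just after the start with a shoulder downstream, the equal-length Day 12- 12 curve peaks at 4.44% just before it, and the full Day 12- 12 curve stays at or below 1.13%.

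The earlier libraries separated the classes of site. Of the shared sites 73.0% had a summit in the day 12 library (12 days of Dox), 52.4% at day 8, 35.0% at day 4 and 24.8% at day 0 (untreated). A summit of the library titled Day 12- 4, labelled as a Cd11b-high sort at 12 days of Dox, was within 100 bp of 44.2%. Sites called in Day 12- 8 alone had a summit at day 0 in 14.7% of cases and at day 4 in 0.927%, although the day 4 list held 57424 sites and the day 0 list 8043. For sites called in Day 12- 12 alone this order was turned: 9.50% had a summit at day 4 and 0.359% at day 0. Sites with no summit in any of the other 5 libraries made up 20.2% of the shared class, 65.9% of the Day 12- 8 class and 71.7% of the Day 12- 12 class.

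With lists of 1 length the classes kept the same order at days 0 and 4, but not in every library. With full lists Day 12- 8 alone and Day 12- 12 alone had 10.7% and 7.98% at day 8. In Day 12- 4 they had 4.33% and 3.05%, and both orders turned with lists of 1 length. The order also turned for sites with no summit in the other 5 libraries. These made up 3.99% of the shared class, 61.7% of the Day 12- 8 class and 30.7% of the Day 12- 12 class. Of the sites in the equal-length Day 12- 12 list and not in Day 12- 8, 64.1% had a summit at day 12, 39.3% at day 4, 37.7% at day 8, 17.8% in Day 12- 4 and 2.23% at day 0. Of the Day 12- 8 sites outside that list, 25.2% had a summit at day 12, 1.38% at day 4, 12.5% at day 8, 5.43% in Day 12- 4 and 14.2% at day 0. The gene-end sites called in Day 12- 8 alone (full lists) had a day 0 summit in 23.2% of cases, and the other sites of that class in 8.41%. The day 0 list itself had 61.1% of its sites within 1 kb of a gene end, the day 4 list 11.9%, the day 8 list 21.5%, the day 12 list 17.7% and the Day 12- 4 list 30.0%. The part of gene-end location in the overlap with day 0 was not tested beyond this split.

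**Figure D4:**
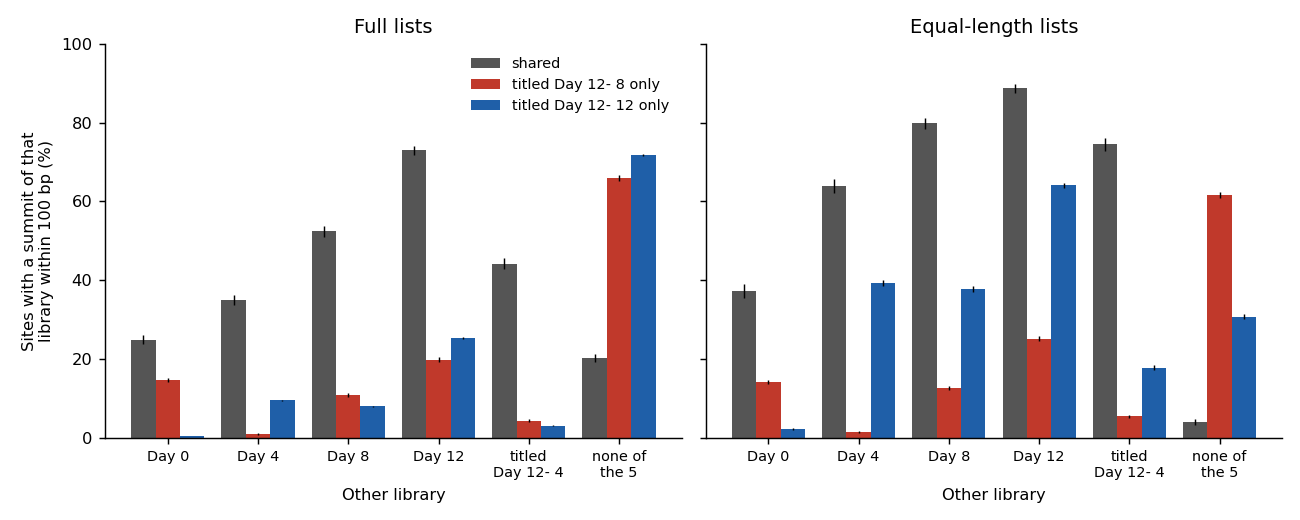
Percent of shared sites, sites called in Day 12- 8 alone and sites called in Day 12- 12 alone that had a summit of each other library within 100 bp, for full lists (left) and lists of 1 length (right). Lines are exact 95% intervals; sites of Day 12- 12 alone stand above those of Day 12- 8 alone at day 4 and below them at day 0 in both panels.

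The 10 best shared sites, ranked by the worse of their ranks in the lists, scored 277 to 798 in Day 12- 8. The first lay inside Tsc22d1, a leucine-zipper transcriptional regulator, at chromosome 14, 76506652, with 798 in Day 12- 8 and 703 in Day 12- 12. The site inside Actr2, an ARP2/3 complex subunit that nucleates branched actin, at chromosome 11, 20112445, scored 444 and 535. The site inside Arpc4, another ARP2/3 subunit, at chromosome 6, 113378199, scored 391 and 482. The site inside Rfc2, a subunit of the replication clamp loader, at chromosome 5, 134582748, scored 357 and 503. The others lay by Slc39a13, Tatdn1, Lrrc75a, Rab32, Trim7 and Prr14l. Of the 10, 7 lay within 1 kb of a gene end, and all 10 had a summit at day 0, at day 12 and in Day 12- 4.

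The 10 highest-scoring Day 12- 8 sites without a Day 12- 12 summit within 500 bp scored much lower, 73.4 to 112, and 1 lay within 1 kb of a gene end. That site was inside Trappc4, a subunit of the TRAPP vesicle-tethering complex, at chromosome 9, 44407115, and scored 76.9; a Day 12- 12 summit lay 574 bp from it. A site inside Cdk8, the kinase of the Mediator complex, at chromosome 5, 146261243 and 30448 bp from a gene end, scored 88.0. One inside Elf2, itself an ETS factor, at chromosome 3, 51277517, scored 77.2. The others included sites 137 kb from Rab10 and 282 kb from Pex2, sites inside Filip1l and Chl1, and 1 on an unplaced scaffold. A day 0 summit was called at 8 of the 10, at 4 of them within 3 bp. A summit was called at 5 of the 10 at day 4, at 9 at day 8, at 7 at day 12 and at 2 in Day 12- 4. The highest of the 10, at 112, lay 334 kb from the nearest gene, Alkbh8, at chromosome 9, 3001376, with a Day 12- 12 summit 911 bp away. Regions prone to artefact signal were not filtered out here, and whether these sites lie in such regions was not tested.

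The 10 highest-scoring Day 12- 12 sites without a Day 12- 8 summit within 500 bp scored 393 to 526. The first lay inside Tm6sf1, at chromosome 7, 81863367, and scored 526. A site inside Grk6, a kinase that desensitises chemokine receptors, at chromosome 13, 55447896, scored 460. A site inside Il4ra, the interleukin 4 receptor subunit, at chromosome 7, 125555713, scored 455, and one inside Alox5ap, which is needed to make leukotrienes, at chromosome 5, 149265080, scored 437. The site inside Slc2a1, the glucose transporter GLUT1, at chromosome 4, 119127432, scored 421. The other 5 lay by Atp5mpl, Pde10a, Relt, Sik1 and Epb41. All 10 had a summit at days 4, 8 and 12 and in Day 12- 4, where their scores were 77.3 to 231, and 8 of the 10 had one at day 0, with scores of 6.30 to 27.5. The nearest Day 12- 8 summit lay between 3284 bp (Epb41) and 109771 bp (Pde10a) away. The call in Day 12- 12 and its lack in Day 12- 8 were set by the choice of these sites. The calls in the other libraries were not part of that choice.

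Spi1, which encodes PU.1 (chromosome 2, 91082374 to 91115759), had its best site in both lists, and so had the region upstream of it. The upstream summit, at position 91070597 and outside the 10 kb window used for Spi1, lay 156 bp from Slc39a13. It scored 480 in Day 12- 8 and 485 in Day 12- 12, with 65 bp between the summits. The summit inside Spi1 at 91083075, 701 bp from its end, scored 142 in Day 12- 8, and its counterpart 14 bp away scored 472 in Day 12- 12. In the other libraries that site scored 16.1 at day 0, 304 at day 4, 217 at day 8, 674 at day 12 and 219 in Day 12- 4. Another pair, inside the gene at 91096712, scored 8.78 and 51.7. Within 10 kb of Spi1 there were 4 Day 12- 8 sites and 13 Day 12- 12 sites, 8 of them in the equal-length list. The site inside the gene at 91084724 scored 66.0 in Day 12- 12 and 374 at day 12, and had no Day 12- 8 summit within 1649 bp.

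Sites were assigned to a gene over its body and the 10 kb on each side. By that rule 61.8% of the 21887 protein-coding genes had a Day 12- 8 site and 78.9% a Day 12- 12 site, or 47.8% with the equal-length list. A site in both libraries was found at 12755 genes (58.3%), in Day 12- 8 and not Day 12- 12 at 769 (3.51%), and in Day 12- 12 and not Day 12- 8 at 4517 (20.6%). With lists of 1 length these were 8843 genes (40.4%), 4681 genes (21.4%) and 1611 genes (7.36%). The balance between the one-sided classes turned with list length. Of the 4681 genes 67.2% had a Day 12- 8 site within 1 kb of their own end, and of the 1611 genes 36.6% had a site of the equal-length list there. Counting every Day 12- 12 site of the full list, 70.8% of the 1611 genes had one at their own end. At many genes called in both the best-scoring summits differed: they lay within 100 bp of each other at 25.04% of the 12755 genes. Whether lower-scoring summits at the other genes were shared was not counted.

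Gene lists for 16 roles, 401 genes in all, are read below against those percentages of all genes. Genes of surface receptors and secreted effectors of mature myeloid cells stood below the background in Day 12- 8 and at or above it in Day 12- 12. Of 34 receptor and integrin genes 15 (44.1%) had a Day 12- 8 site, 27 (79.4%) a Day 12- 12 site and 22 (64.7%) an equal-length site. With lists of 1 length 8 of the 34 (23.5%, beside 7.36% of all genes) had a Day 12- 12 site and no Day 12- 8 site. The reverse was found at 1, Fcgr3 (2.94%, beside 21.4%). The lists of other blood lineages, given below, leaned the same way. Of 29 granule, oxidase and lysosomal genes 15, 25 and 17 had a site in the 3 lists. On the one-sided counts 4 (13.8%) had a Day 12- 12 site alone and 2 (6.90%) a Day 12- 8 site alone. A longer gene has more room for a site, and the median gene length was 12.8 kb in the first list and 10.6 kb in the second, against 17.2 kb for all genes; its part in the counts was not tested.

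Itgb2, the beta-2 integrin chain CD18 (chromosome 10, 77530329 to 77565708), had no Day 12- 8 site and 27 Day 12- 12 sites, the best scoring 126 and lying 20 bp inside the gene. Its best scores elsewhere were 284 at day 4, 186 at day 8, 401 at day 12 and 20.03 in Day 12- 4, and day 0 had no site, so Day 12- 8 and day 0 were the libraries without a call. Pirb, an inhibitory immunoglobulin-like receptor (chromosome 7, 3712505 to 3720382), had no Day 12- 8 site and 4 Day 12- 12 sites, the best scoring 66.0 and 81 bp outside. Cx3cr1, the fractalkine receptor, had none and 12, and the cathelicidin gene Camp none and 4. Itgam, which encodes CD11b (chromosome 7, 128062640 to 128118491), had none and 5, but all 5 were outside the equal-length list and the best scored 9.43.

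Other myeloid effector genes were called in both. Cd300a, an inhibitory receptor (chromosome 11, 114889152 to 114901946), had a site inside the gene that scored 62.3 in Day 12- 8 and 379 in Day 12- 12, 15 bp apart. Cyba, the oxidase subunit p22phox (chromosome 8, 122424771 to 122432940), had 2 and 21 sites with best scores of 12.1 and 407 at summits 2232 bp apart. Rac2, the haematopoietic GTPase of the oxidase, scored 11.4 and 309 at summits 8 bp apart. Csf2ra, the GM-CSF receptor alpha chain, scored 154 in Day 12- 8 and 143 in Day 12- 12, 9 bp apart. Csf1r, the M-CSF receptor, had 3 and 17 sites with best scores of 7.53 and 28.1.

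Myeloid transcription factor genes had sites in both libraries more often than genes at large: 29 of 31 (93.5%) in Day 12- 8, 28 (90.3%) in Day 12- 12 and 24 (77.4%) in the equal-length list. Fosb, an AP-1 subunit (chromosome 7, 19302696 to 19310118), had a site 6.54 kb outside the gene with 588 in Day 12- 12 and, 14 bp away, 34.4 in Day 12- 8. Cebpe, the factor of late granulocyte maturation (chromosome 14, 54710363 to 54712174), had no Day 12- 8 site and 5 Day 12- 12 sites, the best scoring 60.2. In the other direction Tfec, Klf6 and Cebpd had a Day 12- 8 site and no Day 12- 12 site, with scores of 8.93, 5.38 and 4.15. The sites at Klf6 and Cebpd lay 47 bp and 12 bp inside the gene.

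Stem cell and leukaemia-associated genes, with a median length of 52.9 kb, had 11 one-sided genes in Day 12- 8 (36.7%, beside 21.4% of all genes) and 1 in Day 12- 12 (3.33%, beside 7.36%) with lists of 1 length. Of 30 genes 27 had a Day 12- 8 site, 29 a Day 12- 12 site and 17 an equal-length site. A Day 12- 8 site without an equal-length site was found at 11: Myc, Mycn, Hoxa7, Hoxa9, Hoxa10, Pbx3, Bmi1, Ikzf2, Sox4, Tet2 and Npm1. The reverse was found at 1, Myb. The best Day 12- 8 scores of the 11 ran from 4.05 at Pbx3 to 12.2 at Myc. At a summit that Hoxa7, Hoxa9 and Hoxa10 share the score was 10.4. Over all genes with a Day 12- 8 site the median best score was 10.6. Each of the 11 had a Day 12- 12 site in the full list, below the end of the equal-length list. The best-scoring genes of the list were called in both: Lyl1, a basic helix-loop-helix factor (chromosome 8, 84701423 to 84704716), with 135 and 419, and Mcl1, an anti-apoptotic BCL2 relative (chromosome 3, 95656944 to 95663179), with 153 and 146 at summits 2 bp apart.

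Inflammatory feedback regulators had sites in 19 of 20 genes (95%) in either full list, beside 61.8% of all genes in Day 12- 8 and 78.9% in Day 12- 12. With lists of 1 length 6 (30%, beside 21.4% of all genes) had a Day 12- 8 site alone. A Day 12- 12 site alone was found at 0, beside 7.36% of all genes. Dusp5, a phosphatase that inactivates ERK (chromosome 19, 53529145 to 53541809), scored 588 in Day 12- 8, rank 3 in that list, and 357 in Day 12- 12, 193 bp outside the gene and 1 bp apart. Tnfaip3, which encodes the NF-kappaB inhibitor A20 (chromosome 10, 19000910 to 19015410), scored 465 and 285, 3 bp apart. Both were also called at day 0, Dusp5 with 366 and Tnfaip3 with 446, and at day 12, with 434 and 366. Zc3h12a, which encodes the RNase Regnase-1 (chromosome 4, 125118414 to 125127881), scored 17.1 and 332 at sites 9719 bp apart, and had no day 0 site.

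Signalling and actin genes were called at higher shares than all genes in each of the 3 lists, and were longer, with median gene lengths of 57.3 kb and 24.97 kb against 17.2 kb; the part of length was not tested. Of 24 genes of kinases, phosphatases and adaptors 20 had a Day 12- 8 site, 24 a Day 12- 12 site and 22 an equal-length site. Of 25 actin cytoskeleton regulators the counts were 22, 25 and 24. Vav1, a haematopoietic guanine nucleotide exchange factor (chromosome 17, 57279100 to 57329236), scored 216 in Day 12- 8 and 448 in Day 12- 12, 61 bp apart at its end. Btk, the Tec-family kinase of B and myeloid cells (chromosome X, 134542334 to 134583628), scored 17.1 and 297, 16 bp apart. Coro1a, an actin-binding protein of leukocytes (chromosome 7, 126699774 to 126704816), scored 291 and 358, 23 bp apart and 3.84 kb outside the gene. Inpp5d, the inositol phosphatase SHIP1 (chromosome 1, 87620312 to 87720510), had no Day 12- 8 site and 21 Day 12- 12 sites, the best scoring 204 inside the gene.

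Among genes of other blood lineages, the T-lymphoid and mast cell lists had the lowest shares in Day 12- 8, beside 61.8% of all genes. Of 20 T-lymphoid and NK genes 7 (35.0%) had a Day 12- 8 site, 18 a Day 12- 12 site and 10 an equal-length site. For 14 mast cell and basophil genes the counts were 4 (28.6%), 10 and 6. The other 2 lists were nearer to all genes in Day 12- 8: 9 of 17 B-lymphoid genes (52.9%), with 15 and 11 in the Day 12- 12 lists, and 11 of 19 erythroid and megakaryocytic genes (57.9%), with 18 and 14. With lists of 1 length a Day 12- 12 site alone was found at 5 T-lymphoid (25%) and 3 mast cell genes (21.4%). It was found at 2 B-lymphoid (11.8%) and 4 erythroid genes (21.1%), beside 7.36% of all genes. In the same order, a Day 12- 8 site alone was found at 2, 1, 0 and 1, beside 21.4% of all genes. Cd72, a B-cell and myeloid receptor (chromosome 4, 43447724 to 43455102), scored 7.43 and 394 at summits 15 bp apart inside the gene. Nfe2, a megakaryocytic and erythroid factor (chromosome 15, 103248212 to 103258403), scored 16.5 and 270, 42 bp apart. Cd3d and Cd3g, neighbouring genes for CD3 subunits of the T-cell receptor complex, shared 1 Day 12- 12 site with a score of 61.6 and had no Day 12- 8 site.

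Genes that every cell uses had sites in nearly all cases in both full lists, and their one-sided counts with lists of 1 length leaned to Day 12- 8. Of 30 cytosolic ribosomal protein genes 30 had a Day 12- 8 site, 29 a Day 12- 12 site and 25 an equal-length site, with 5 against 0 one-sided. Of 26 genes of RNA processing and translation the counts were 25, 25 and 19 (7 against 1). Of 25 genes of mitochondrial respiration and the proteasome they were 22, 23 and 14 (8 against 0). Of 32 cell cycle and replication genes they were 29, 31 and 23 (8 against 2). Over all genes the one-sided classes were 21.4% and 7.36%, so a lean to Day 12- 8 is the background.

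Srsf2, a splicing factor gene (chromosome 11, 116849897 to 116853675), scored 445 in Day 12- 8 and 336 in Day 12- 12, 5 bp apart. Cdc20, an activator of the anaphase-promoting complex (chromosome 4, 118432901 to 118437343), scored 266 and 210 at a site 4.76 kb outside the gene. Cycs, which encodes cytochrome c (chromosome 6, 50562563 to 50566569), had a Day 12- 8 site 43 bp inside the gene with a score of 12.8 and no Day 12- 12 site. Cdc6, a replication licensing factor (chromosome 11, 98907709 to 98923942), had no Day 12- 8 site and 17 Day 12- 12 sites, the best scoring 37.6. Of 25 genes of non-haematopoietic tissues 14 (56.0%) had a Day 12- 8 site, 22 (88.0%) a Day 12- 12 site and 11 (44.0%) an equal-length site.

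**Figure D5:**
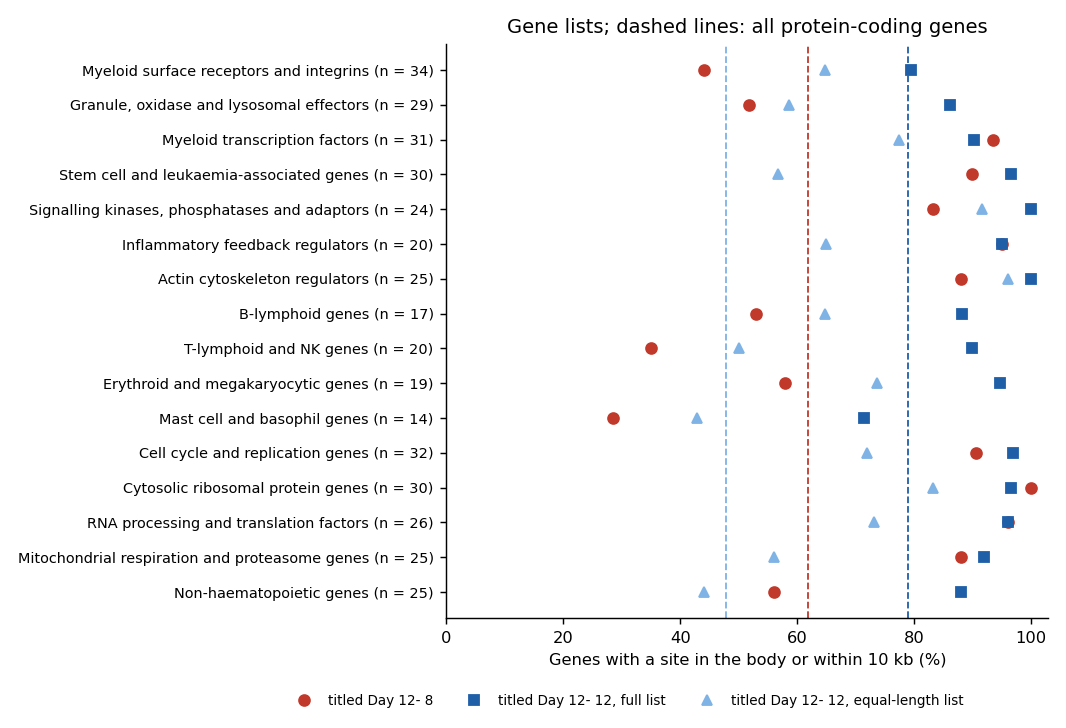
Percent of the genes of each list with a site in the body or within 10 kb, for Day 12- 8 (circles), the full Day 12- 12 list (squares) and the equal-length Day 12- 12 list (triangles); dashed lines give the percent of all 21887 protein-coding genes, 61.8%, 78.9% and 47.8%. Myeloid receptors, granule genes and other blood lineages have the triangle to the right of the circle, while stem cell, feedback and general cell genes have it to the left.

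The Day 12- 12 sites were spread unevenly over genes and chromosomes. Camta1, a calmodulin-binding transcription activator (chromosome 4, 151059523 to 151861768), held 336 Day 12- 12 sites and 17 Day 12- 8 sites. Gse1 (chromosome 8, 120228501 to 120581383) held 235 and 40, the highest Day 12- 8 number of any gene. Cdh23, a cadherin of sensory hair cells (chromosome 10, 60302748 to 60696513), held 220 and 14. The ratio of Day 12- 12 to Day 12- 8 sites ran from 3.68 on chromosome X to 8.65 on chromosome 5. Chromosomes 4 and 5 together held 18.6% of the Day 12- 8 list, 23.0% of the Day 12- 12 list and 28.6% of the equal-length list; because ties at its end were kept in file order, that share depends in part on that order.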

How the data were processed

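The deposited files were lists of MACS2 peak summits on mm10, per the submitters' processing notes. Their scores were read as the −log10 q-values that the authors deposited, from the values: the lowest score in all lists was 1.30104, and a q limit of 0.05 gives 1.30103. For the aligner, the MACS2 version, the control, read filters, depth and any pooling of libraries before peak calling, nothing is given in the sources used here.

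Lists were compared in scripts that were tested on simulated data (scipy 1.17.1, pandas 2.3.3, numpy 2.4.6 and matplotlib 3.10.9 under Python 3.11.15). Sites were shared when summits lay within 100 bp. Genes were the 21887 protein-coding genes of a RefSeq table (GRCm38.p6), and promoter windows and sequences came from RefSeq for 79.8% of them. Scaffold sites stayed in the denominators of gene-end shares. Alternatives were other distances, gene windows, list lengths and score minimums, autosomes and X alone, and, added after seeing the data, ties left out and annotated start sites.

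The members, lists and rules were chosen with earlier results of these data known. Named genes were, for each list, up to 3 called in both libraries with the highest scores and up to 3 of each one-sided class. Named sites were the 10 best of each class, and Spi1, Itgam and Csf1r were always named. Members of one-sided counts between lists of 1 length were named after their values were seen. No test was made, since each time point had 1 library. Some genes that this rule names are not reported here.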

Additional observations from a re-analysis of the deposited data

How the results depend on the processing

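Of 85 alternative values 38 stayed within the interval or within 1.5 times of the value reported and 47 moved. List length turned more than 1 order. Genes with a site in 1 library alone numbered 769 in Day 12- 8 and 4517 in Day 12- 12 with full lists, and 4681 and 1611 with lists of 1 length. For sites called in 1 library alone, the order of the shares with a summit at day 8 and in the first knockdown library also turned. So did the order for sites with no summit in any of the other libraries. No paired analysis was possible because each time point had 1 library and the values come from no test. Sharing within 50, 200 and 500 bp was 17.1%, 35.4% and 44.1% of Day 12- 8, 2.46%, 5.10% and 6.50% of Day 12- 12, and 9.34%, 17.2% and 19.9% between lists of 1 length. Under the same distances the gene-end share of Day 12- 12 sites called alone was 9.31%, 8.22% and 7.71%; for Day 12- 8 sites called alone it was 43.1% at 50 bp and 41.0% at 500 bp, and for shared sites 48.7% at 500 bp. With gene ends drawn at 500 bp and at 2 kb the share was 36.0% and 52.8% in Day 12- 8, 6.61% and 16.3% in Day 12- 12, 16.4% and 27.8% in the equal-length list, 44.1% and 57.7% at shared sites, 33.1% and 51.0% at Day 12- 8 sites called alone, and 5.15% and 14.7% at Day 12- 12 sites called alone.

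With a score of at least 10 in both lists, sharing was 37.2% of Day 12- 8 and 8.32% of Day 12- 12. The gene-end share was then 61.2% in Day 12- 8, 18.6% in Day 12- 12, 70.8% at shared sites, 55.5% and 13.8% at sites called alone, and 6159 genes had a site in both. Cutting both lists to 8043 sites, the length of the shortest list of the series, gave 22.6% sharing, gene-end shares of 57.5% in Day 12- 8 and 34.1% in Day 12- 12, and 4777 genes with a site in both. Leaving out the tied sites gave a gene-end share of 21.8% in the equal-length list, and annotated start sites in place of gene ends gave 39.9%, 6.13% and 17.0%. Genes with a site in Day 12- 8 and not Day 12- 12 (full lists) numbered 1458 with the gene body alone, 1170 with 2 kb and 300 with 50 kb on each side, beside 769 with 10 kb. For lists of 1 length, 4982 genes had a site in both with the gene body alone, and 1043 had a Day 12- 12 site alone with 50 kb. Unknown depth and control limit every statement on list length.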
